A study of Mus musculus with 9 samples.

Results

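The 29 genes described here encode lysosomal proteases, glycosidases, lipid-handling proteins and membrane proteins, together with Tfeb and Tfe3, which encode transcription factors of lysosomal genes. They were chosen by name, all 29 were found among the 49671 genes of the count table, and all 29 passed the filter on low counts. The RNA-seq data cover 3 groups of 3 libraries of total RNA, from CD3+ T cells enriched from the spleens of female F1 mice. The mothers were C57BL/6 mice with 1 deleted copy of Xist, the fathers were castaneus mice, and the cross gives skewed X inactivation. The unstimulated group went into TRIzol straight after column enrichment. The stimulated group spent 48 hours on plates coated with anti-CD3 (1 µg/ml), with anti-CD28 in solution (10 µg/ml). The inhibitor group was stimulated alike in the presence of 2.5 µM IMD-0354, which blocks IKK-beta, a kinase of the NF-kB pathway. The labels give no age, no vehicle in the stimulated cultures and no culture without stimulation, so culture and stimulation cannot be told apart here.

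Lysosomes are acidic compartments in which proteins, sugar chains and lipids that arrive by endocytosis or autophagy are broken down. Their hydrolases are made in the endoplasmic reticulum and sorted to the lysosome, largely through a mannose 6-phosphate tag, and a vacuolar ATPase pumps in the protons that keep them active. TFEB and TFE3 bind E-box letters in the promoters of many lysosomal genes, the CLEAR network. The kinase mTORC1 keeps both factors in the cytosol when nutrients are plentiful, and they move to the nucleus when it is less active. T cells use lysosomes for turnover of their own components and, in cytotoxic cells, for granules, whereas macrophages and dendritic cells are much richer in lysosomes.

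Total counts were 34009988 to 56221174 per library. Levels are in CPM, a gene's counts relative to the library total after TMM scaling, and mean ± SD is over the 3 libraries of a group. A gene "rose", "fell" or was "called" where its adjusted p in edgeR's quasi-likelihood test was under 0.05 over 18374 genes. A ± after a log2 fold change is an approximate SE. T cell markers summed to 1968 to 3025 CPM in unstimulated, 2405 to 2586 in stimulated and 2387 to 2496 in inhibitor libraries. The 26 markers of myeloid and dendritic cells summed to 2529, 3813 and 1542 CPM in unstimulated libraries 1 to 3, against 35.4 to 43.6 in stimulated and 43.3 to 88.8 in inhibitor libraries. Of these markers, C1qa, C1qb and C1qc had no count in any stimulated library. Markers of B cells (1032 to 3017 CPM unstimulated, 84.3 to 93.5 stimulated, 161 to 166 with inhibitor), NK cells (392 to 472, 114 to 220 and 33.0 to 42.6 CPM) and erythroid cells with platelets (40.6 to 614, 4.41 to 8.15 and 4.90 to 15.4 CPM) were lower in culture too. In bulk RNA, fewer cells of a type and less RNA per cell cannot be told apart. Inhibitor library 1 stood apart with counts in 30106 genes, against 20547 to 23223 in the others. Without it, 13 of the 29 genes rose and 8 fell against stimulated cells, where Ctsa lost its call (adjusted p = 0.0723) and Npc2 gained one (adjusted p = 0.00879).

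Most lysosomal genes were lower after 48 hours of stimulation, and the inhibitor split them. In the comparison of stimulated with unstimulated cells, 18 of the 29 genes fell, 3 rose (Ctsz, Gaa and Gusb) and 8 were not called. Over all genes tested 34.0% fell and 32.0% rose. Of the 29 genes 8 fell by 2-fold or more, beside 23.2% of all genes. Among the 9165 genes whose mean log2 CPM was 3 or more, a level reached by 27 of the 29 genes, 30.4% fell and 45.2% rose. The median log2 fold change was -0.56 for the 29 genes and -0.05 for all genes tested. Together the 29 genes took 3336, 3568 and 3392 CPM in the unstimulated, 2011, 2092 and 2220 in the stimulated and 2121, 2307 and 2337 in the inhibitor libraries. Without Psap the sums were 2559 to 2697, 1848 to 2034 and 1896 to 2045 CPM.

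With the inhibitor, 13 of the 29 genes were higher than in stimulated cells, 8 were lower and 8 were not called, beside 21.7% higher and 22.8% lower over all genes tested. By 2-fold or more, Mcoln1, Ctsh and Tpp1 rose (9.31% of all genes) and Gla and Gusb fell (10.8%). Among genes at a mean log2 CPM of 3 or more, 27.4% were higher and 31.5% lower. The median was 0.29, against 0.03 over all genes. Without inhibitor library 2, 8 of them rose and 6 fell. Compared with unstimulated cells, inhibitor-treated cells had 16 of the 29 genes lower and 6 higher (26.1% and 26.3% over all genes, and 24.0% and 39.8% over those at a mean log2 CPM of 3 or more). The 3 comparisons share their groups, so their counts are not independent of each other.

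**Figure D1:**
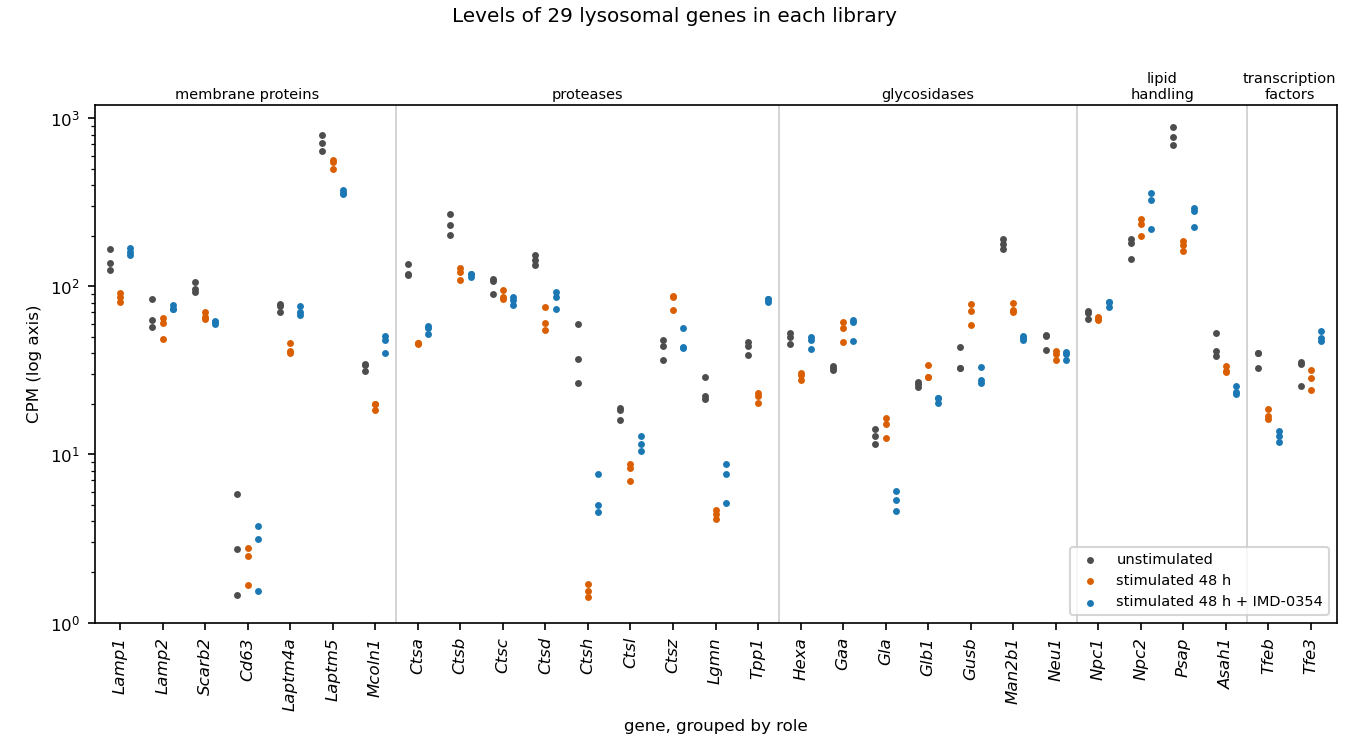
CPM on a log axis of each of the 29 lysosomal genes, with 1 point per library for the unstimulated, stimulated and inhibitor groups (3 libraries each), ordered by role. Psap falls from 695 to 885 CPM in unstimulated to 163 to 186 in stimulated libraries, and Ctsh from 26.7 to 60.0 to under 2 CPM.

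**Figure D2:**
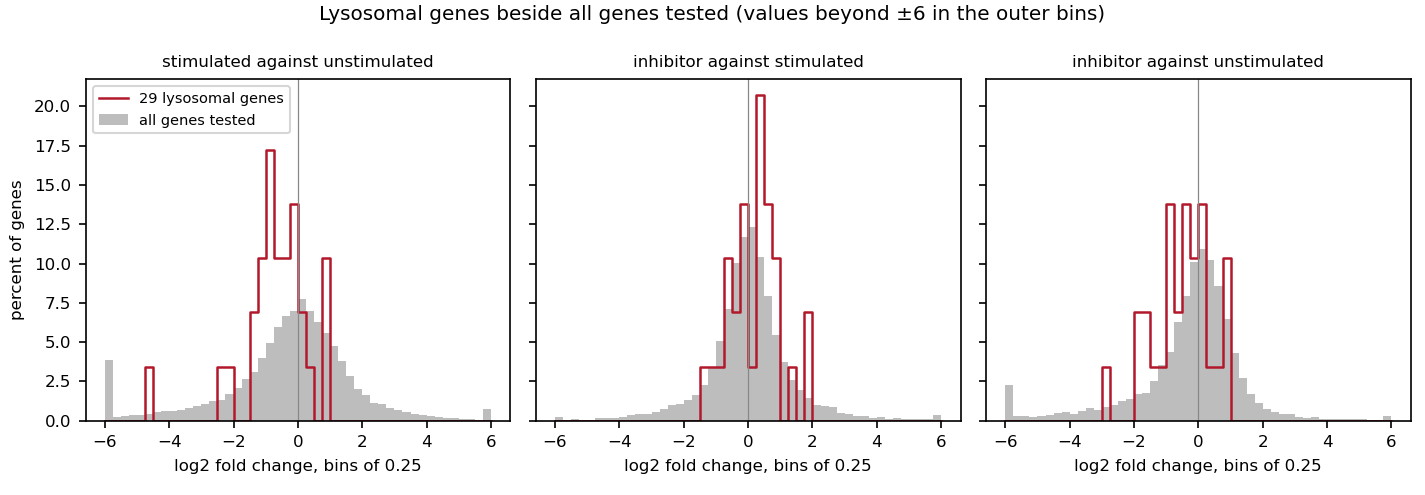
Percent of genes by log2 fold change in bins of 0.25 for all 18374 genes tested (grey bars) and for the 29 lysosomal genes (red line), in the 3 comparisons. In the first panel the 29 genes have a median of -0.56 against -0.05 for all genes, and an upper quartile of -0.175 against 0.858. The lower quartiles are alike, at -1.116 and -1.117.

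The regulators Tfeb and Tfe3 moved apart. Tfeb (ENSMUSG00000023990, mm10 chromosome 17, 47737030 to 47792419) was at 40.1, 40.0 and 32.5 CPM in unstimulated libraries 1 to 3, 16.3, 17.0 and 18.7 in stimulated and 12.9, 11.9 and 13.8 in inhibitor libraries. No 2 groups overlapped. Its log2 fold change was -1.12 ± 0.12 with stimulation (adjusted p = 2.1e-05) and -0.43 ± 0.12 from stimulated to inhibitor (adjusted p = 0.0163). This second call was lost without stimulated library 3 (adjusted p = 0.0676), without inhibitor library 2 (adjusted p = 0.0674) and under upper-quartile scaling (-0.30, adjusted p = 0.0685). Tfe3 (ENSMUSG00000000134, chromosome X, 7762560 to 7775202) had 34.7, 35.3 and 25.6 CPM in unstimulated, 24.3, 28.6 and 31.8 in stimulated and 49.2, 54.4 and 47.5 in inhibitor libraries. The first 2 groups overlapped and the inhibitor libraries lay above both. Tfe3 was not called with stimulation (-0.17 ± 0.15, adjusted p = 0.311) and rose with the inhibitor, by 0.84 ± 0.15 against stimulated (adjusted p = 0.0012) and 0.66 ± 0.15 against unstimulated cells (adjusted p = 0.0035). Per kilobase of exon the 2 factors were at 3.05 ± 0.22 (Tfeb) and 3.05 ± 0.41 RPKM (Tfe3) in stimulated cells, and at 2.27 ± 0.16 and 5.44 ± 0.39 RPKM with the inhibitor.

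The promoters of several members hold the letters that TFEB and TFE3 are known to bind. The E-box CACGTG, which reads the same on both strands, was searched in the 250 bases before each RefSeq start (GRCm38.p6, the assembly of mm10), and so was the CLEAR core TCACGTGA, which contains it. Of the 29 genes 25 had an entry (Asah1, Ctsb, Ctsh and Npc1 had none). The E-box was found in 9 of these 25, or 36.0%, against 6.86% of all 27025 genes with an entry, and the CLEAR core in 4, or 16.0%, against 0.907%. This background was not limited to the 18374 genes tested. The 4 were Ctsa, Ctsd, Mcoln1 and Gla. Lamp1 had 4 E-boxes, more than any other member, without the longer core. The stretches of 100 bases that hold these matches are shown because the genes share the letters and differ in their response to the inhibitor. Capitals mark each CACGTG. The stretches are chr8:3500419-3500518 (plus strand) for Mcoln1, chr8:13159061-13159160 (plus) for Lamp1, chr7:142387828-142387927 (minus) for Ctsd, chr2:164833673-164833772 (plus, before the second of 2 listed starts) for Ctsa and chrX:134601156-134601255 (minus) for Gla. All but that of Gla end at the base before the start.
Mcoln1: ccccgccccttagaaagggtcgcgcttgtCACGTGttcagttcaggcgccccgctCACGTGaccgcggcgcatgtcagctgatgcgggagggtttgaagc
Lamp1: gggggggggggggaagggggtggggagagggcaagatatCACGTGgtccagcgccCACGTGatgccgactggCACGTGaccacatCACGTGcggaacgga
Ctsd: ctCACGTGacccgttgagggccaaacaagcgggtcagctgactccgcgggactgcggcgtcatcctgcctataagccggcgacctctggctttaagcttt
Ctsa: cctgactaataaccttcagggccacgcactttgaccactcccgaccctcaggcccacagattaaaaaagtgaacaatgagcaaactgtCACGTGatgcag
Gla: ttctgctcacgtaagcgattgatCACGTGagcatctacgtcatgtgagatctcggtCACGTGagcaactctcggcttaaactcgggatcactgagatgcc

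These genes did not move as 1 group. From stimulated to inhibitor cells the log2 fold change was 1.25 for Mcoln1, 0.89 for Lamp1, 0.40 for Ctsd, 0.28 for Ctsa and -1.47 for Gla. Of the 9 members with an E-box, 6 rose with the inhibitor (Lamp1, Mcoln1, Ctsa, Ctsd, Ctsl and Lgmn), Gla and Glb1 fell, and Gaa was not called. Without inhibitor library 2 the calls of Ctsa, Ctsd, Ctsl and Lgmn were lost (adjusted p = 0.0848, 0.0849, 0.0556 and 0.0606). Of the 16 members with an entry and no E-box in this window, 5 rose, 5 fell and 6 were not called. Without that library the 5 that rose kept their calls, and Tfeb, of those that fell, lost its call (adjusted p = 0.0674). Tpp1, which had the largest rise of the 29 genes with the inhibitor, was among the 16. A match of letters is a description of the sequence and was not tested as a binding site.

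**Figure D3:**
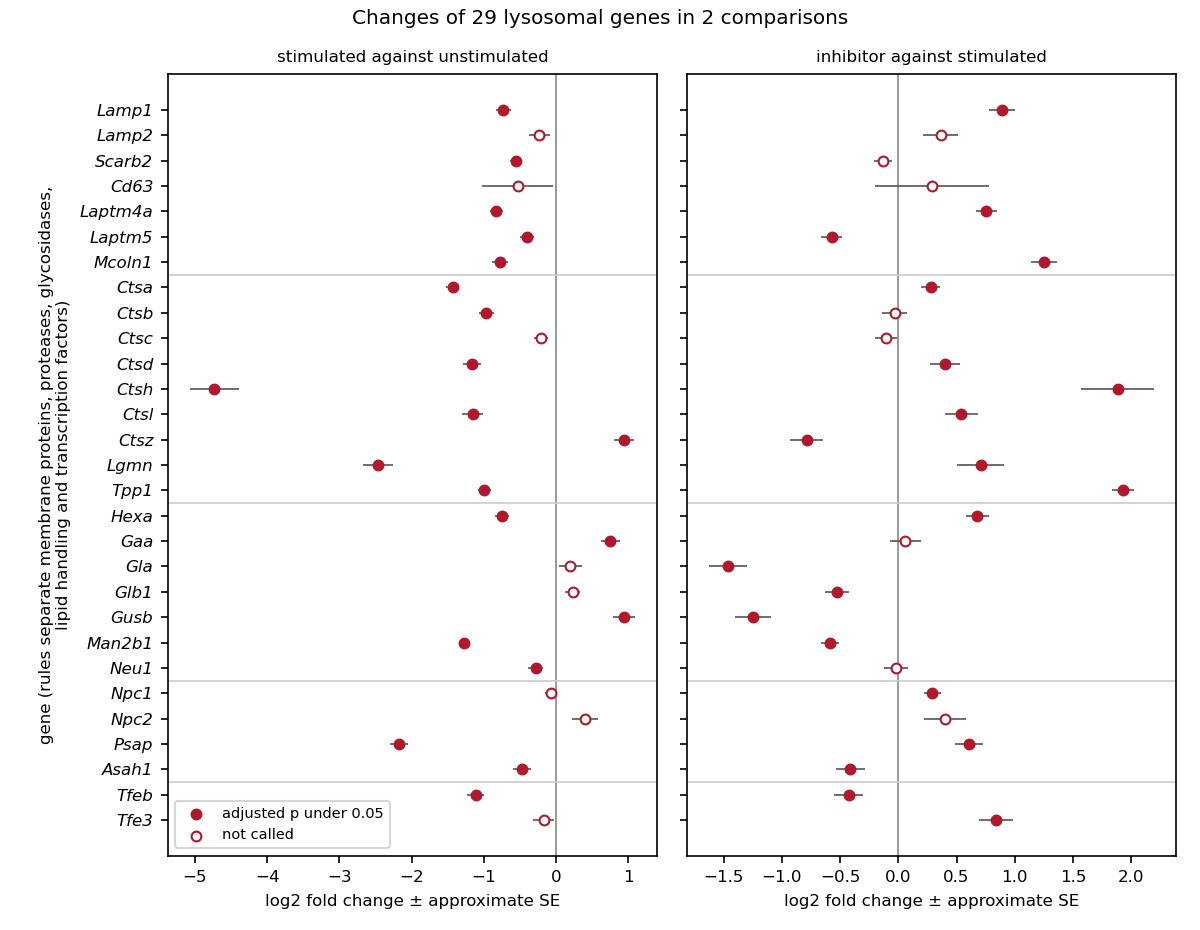
Log2 fold change with its approximate SE for the 29 genes, stimulated against unstimulated (left) and inhibitor against stimulated (right), with filled points for adjusted p under 0.05 and open points for genes not called. On the left 18 filled points lie below 0 and 3 above, and on the right 8 lie below and 13 above.

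Of the 7 membrane proteins 5 fell with stimulation and none rose. With the inhibitor Lamp1, Laptm4a and Mcoln1 rose and Laptm5 fell. Mcoln1 (ENSMUSG00000004567, chromosome 8, 3500457 to 3515232) encodes the calcium channel TRPML1, through which lysosomal calcium can activate calcineurin and TFEB. It was at 31.2, 34.1 and 34.5 CPM in unstimulated, 18.3, 19.9 and 19.98 in stimulated and 50.6, 47.9 and 40.2 in inhibitor libraries, so that each group lay apart from the others. The log2 fold changes were -0.78 ± 0.11 with stimulation (adjusted p = 1.3e-04), 1.25 ± 0.11 from stimulated to inhibitor (adjusted p = 1.8e-05) and 0.48 ± 0.11 against unstimulated cells (adjusted p = 0.0042). Lamp1, a heavily glycosylated protein of the lysosomal membrane and a degranulation marker of cytotoxic cells, showed the same order of stimulated and inhibitor cells. Its levels were 143 ± 22.1, 86.5 ± 5.71 and 160 ± 7.73 CPM, with -0.73 ± 0.11 for stimulation (adjusted p = 2.0e-04) and 0.89 ± 0.11 for the inhibitor (adjusted p = 1.4e-04).

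Laptm4a and Laptm5 encode related proteins of late endosomes and lysosomes, and they differed in the inhibitor group. Laptm4a (ENSMUSG00000020585, chromosome 12, 8921664 to 8938742) had 69.9, 76.8 and 78.9 CPM in unstimulated, 45.8, 41.5 and 39.9 in stimulated and 76.1, 67.9 and 70.7 in inhibitor libraries. It fell by 0.83 ± 0.09 (adjusted p = 2.1e-05) and rose by 0.75 ± 0.09 with the inhibitor (adjusted p = 1.1e-04), where its libraries overlapped the unstimulated ones. Laptm5 (ENSMUSG00000028581, chromosome 4, 130913125 to 130936141) is expressed in blood cells and promotes lysosomal degradation of the T cell receptor. It was at 709, 638 and 790.3 CPM in unstimulated, 502, 549.9 and 562 in stimulated and 354, 373 and 357 in inhibitor libraries. Its level was lower in each group than in the one before, by 0.41 ± 0.09 (adjusted p = 0.0029) and then by 0.57 ± 0.09 (adjusted p = 7.2e-04), with no overlap.

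The other 3 membrane proteins were Lamp2, Scarb2 and Cd63, of which Scarb2 alone was called with stimulation. Lamp2 (ENSMUSG00000016534, chromosome X, 38401357 to 38456454), which is needed for fusion of autophagosomes with lysosomes, had 63.0, 84.5 and 57.4 CPM in unstimulated, 65.1, 48.5 and 61.0 in stimulated and 77.9, 73.5 and 73.4 in inhibitor libraries. The unstimulated libraries overlapped both other groups, and the inhibitor libraries lay above the stimulated ones. Lamp2 was not called with stimulation (-0.23 ± 0.15, adjusted p = 0.20) or with the inhibitor (0.36 ± 0.15, adjusted p = 0.0753). It was called as higher with the inhibitor in the fit of these 6 libraries alone, both without a replicate block (0.38, adjusted p = 0.0195) and with one (0.39, adjusted p = 0.0106), and under upper-quartile scaling (0.50, adjusted p = 0.0175). With stimulation it was called as lower under that scaling (-0.45, adjusted p = 0.0193) and with the filter at 10 CPM (-0.40, adjusted p = 0.0427). Scarb2, an integral protein of the lysosomal membrane also called LIMP-2, fell from 98.4 ± 7.04 to 66.8 ± 3.23 CPM (-0.56 ± 0.08, adjusted p = 1.3e-04) and was at 60.8 ± 1.08 CPM with the inhibitor. Cd63, a tetraspanin of late endosomes and granules, was at 3.35 ± 2.25, 2.31 ± 0.58 and 2.81 ± 1.13 CPM and was not called in any of the 3 comparisons.

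The proteases held the deepest falls. Of 9, 7 fell with stimulation, Ctsz rose and Ctsc was not called. Ctsh (ENSMUSG00000032359, chromosome 9, 90054152 to 90076089), an aminopeptidase, was at 37.1, 60.0 and 26.7 CPM in unstimulated, 1.54, 1.43 and 1.69 in stimulated and 4.56, 4.99 and 7.65 in inhibitor libraries. The groups did not overlap, and the stimulated group was lowest. Ctsh fell by 4.73 ± 0.33 (adjusted p = 1.2e-06) and rose by 1.88 ± 0.31 with the inhibitor (adjusted p = 8.5e-04). Lgmn, the asparaginyl endopeptidase that trims cathepsins and antigens, went from 24.2 ± 4.14 to 4.39 ± 0.28 CPM (-2.46 ± 0.21, adjusted p = 4.1e-06) and was at 7.16 ± 1.84 CPM with the inhibitor (0.71 ± 0.20, adjusted p = 0.0176). The inhibitor call of Lgmn was lost without stimulated library 2 (adjusted p = 0.0637) or 3 (0.0550) and without inhibitor library 2 (0.0606) or 3 (0.0729).

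Ctsh and Lgmn are also expressed by myeloid cells. Unstimulated library 2 held 2.47 times the summed myeloid markers of library 3. Single markers ranged from 0.907 (Vcam1) to 6.60 times (S100a9), with the neutrophil and monocyte genes S100a8, S100a9 and Lyz2 at 6.04, 6.60 and 2.86 and the macrophage genes Vcam1, Mrc1, C1qc, C1qa and C1qb at 0.907, 0.909, 1.02, 1.19 and 1.21. The level in library 2 was 2.24 times that in library 3 for Ctsh and 1.30 times for Lgmn. Ctsh followed the order of the summed markers in the unstimulated libraries, and Lgmn did not, with 21.4 CPM in library 1 and 22.3 in library 3. The B cell markers (2103, 3017 and 1032 CPM) and the erythroid and platelet markers (510, 614.5 and 40.6 CPM) had that order too. In the inhibitor group library 3 was highest for the myeloid markers (88.8 CPM), for Ctsh and for Lgmn (8.72 CPM). In stimulated libraries the myeloid markers summed to 35.4 to 43.6 CPM and the B cell markers to 84.3 to 93.5 CPM. With the inhibitor these sums were 43.3 to 88.8 and 161 to 166 CPM. The part of the other cells in these 2 falls, or in the rises of Ctsh and Lgmn with the inhibitor, was not tested. For the other members that fell the same ratio of unstimulated libraries 2 and 3 lay between 0.81 (Laptm5) and 1.37 (Asah1), and the 29 genes together had a ratio of 1.05. Cd63, which was not called, had the highest ratio of the 29 genes, 4.01, with 2.75, 5.85 and 1.46 CPM in unstimulated libraries 1 to 3. The summed T cell markers had a ratio of 0.651, below all of these. The part of other cells in the falls of the other members was not tested either. Without unstimulated library 2, 18 of the 29 genes fell and 3 rose. Libraries 1 and 3 still held 2529 and 1542 CPM of the myeloid markers, so this fit does not take those cells away.

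**Figure D4:**
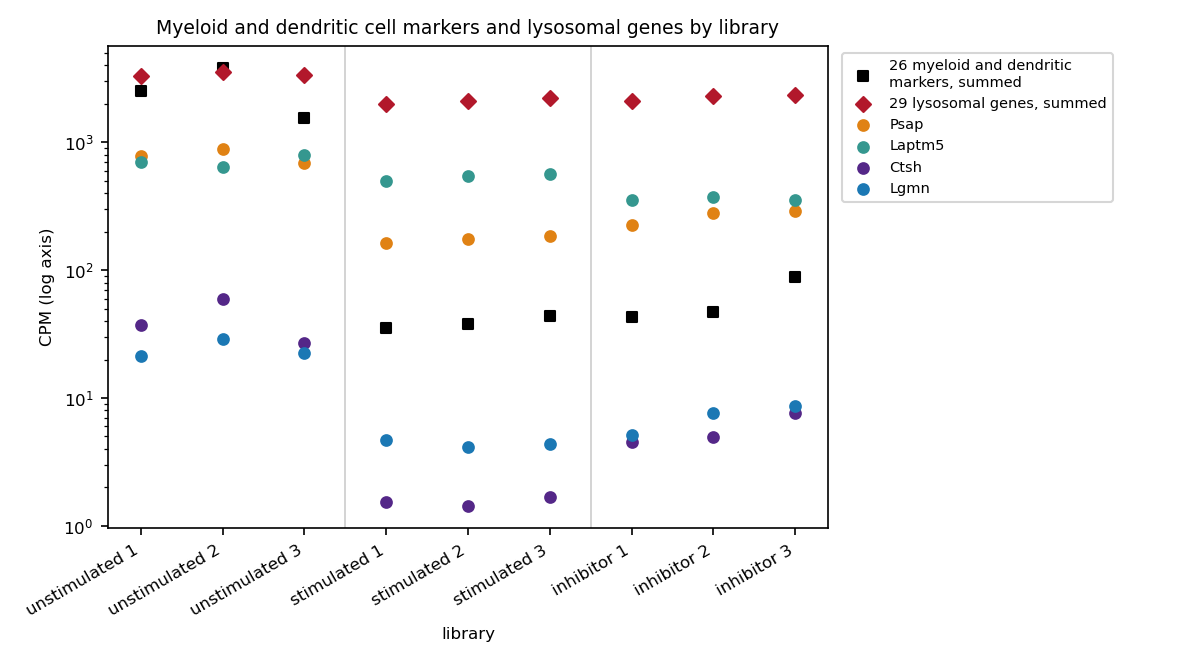
CPM on a log axis in each of the 9 libraries: the 26 myeloid and dendritic cell markers summed, the 29 lysosomal genes summed, and Psap, Laptm5, Ctsh and Lgmn. In unstimulated libraries the markers range from 1542 to 3813 CPM and the sum of the 29 genes from 3336 to 3568 CPM.

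Tpp1 (ENSMUSG00000030894, chromosome 7, 105744811 to 105752235) encodes tripeptidyl peptidase 1, the enzyme missing in a childhood form of Batten disease. Its libraries were at 39.3, 46.8 and 44.2 CPM unstimulated, 23.1, 20.2 and 22.1 stimulated and 83.9, 84.1 and 81.0 with the inhibitor. The groups lay apart, with the inhibitor group highest. Tpp1 fell by 0.99 ± 0.09 with stimulation (adjusted p = 8.1e-06), rose by 1.93 ± 0.10 from there with the inhibitor (adjusted p = 7.5e-07), and exceeded unstimulated cells by 0.93 ± 0.09 (adjusted p = 2.0e-05).

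Ctsz went the other way. Ctsz (ENSMUSG00000016256, chromosome 2, 174427493 to 174439039), a carboxypeptidase, had 44.4, 47.9 and 36.4 CPM in unstimulated, 72.8, 87.4 and 86.7 in stimulated and 43.4, 43.1 and 56.3 in inhibitor libraries. It rose by 0.94 ± 0.14 (adjusted p = 2.1e-04), was lower by 0.79 ± 0.14 with the inhibitor (adjusted p = 0.0014), and overlapped there with unstimulated cells.

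The remaining proteases fell to different extents. Ctsa, the serine carboxypeptidase that also protects beta-galactosidase and neuraminidase, went from 124 ± 11.2 to 45.8 ± 0.45 CPM and was at 55.5 ± 3.20 CPM with the inhibitor. Ctsd, the main aspartic protease, went from 143 ± 9.90 to 63.6 ± 10.2 and 84.0 ± 9.73 CPM, and Ctsl, a cysteine protease, from 17.8 ± 1.55 to 7.98 ± 0.96 and 11.6 ± 1.16 CPM. The log2 fold changes with stimulation were -1.43 for Ctsa, -1.17 for Ctsd and -1.15 for Ctsl, and with the inhibitor 0.28, 0.40 and 0.54. These inhibitor calls had little margin. That of Ctsa was lost without inhibitor library 1 (adjusted p = 0.0723) or 2 (0.0848) and without stimulated library 1 (0.0520), 2 (0.0816) or 3 (0.0708), and that of Ctsl without inhibitor library 2 (0.0556). With no filter the inhibitor call of Ctsa was lost too (0.171). That of Ctsd was lost without stimulated library 1 (0.0981) or 2 (0.1080) and without inhibitor library 2 (0.0849) or 3 (0.0970). Ctsb, a cysteine protease, fell from 234 ± 32.9 to 120 ± 9.77 CPM (-0.97 ± 0.11, adjusted p = 2.2e-05) and was at 117 ± 3.15 CPM with the inhibitor (-0.03, adjusted p = 0.825). Ctsc, which activates granzymes by removing a dipeptide, was at 103 ± 11.2, 88.6 ± 5.5 and 82.3 ± 4.66 CPM and was not called with stimulation (-0.21 ± 0.10, adjusted p = 0.0714). It was called as lower without unstimulated library 1 (-0.30, adjusted p = 0.0171), and under upper-quartile scaling (-0.43), RLE scaling (-0.26), DESeq2 (-0.26) and the filter at 10 CPM (-0.38).

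The glycosidases were divided in both comparisons: 3 fell and 2 rose with stimulation, and 4 fell and 1 rose with the inhibitor. Gusb (ENSMUSG00000025534, chromosome 5, 129989011 to 130003049), the beta-glucuronidase, was at 32.7, 43.3 and 32.6 CPM in unstimulated, 58.6, 71.2 and 78.4 in stimulated and 26.7, 27.7 and 33.3 in inhibitor libraries. The stimulated libraries lay above all others, and the other 2 groups overlapped. Gusb rose by 0.94 ± 0.15 (adjusted p = 3.5e-04) and was lower by 1.25 ± 0.15 with the inhibitor (adjusted p = 1.4e-04). Gla (ENSMUSG00000031266, chromosome X, 134588149 to 134601125), the alpha-galactosidase A that is deficient in Fabry disease, had 14.2, 12.9 and 11.6 CPM in unstimulated, 16.5, 12.6 and 15.2 in stimulated and 6.05, 5.38 and 4.62 in inhibitor libraries. It was not called with stimulation (0.20 ± 0.16, adjusted p = 0.292), and the inhibitor libraries lay below all others, at -1.47 ± 0.16 against stimulated (adjusted p = 7.5e-05) and -1.27 ± 0.16 against unstimulated cells (adjusted p = 1.1e-04).

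Man2b1 (ENSMUSG00000005142, chromosome 8, 85083270 to 85098282), the lysosomal alpha-mannosidase, was at 179, 191 and 167 CPM in unstimulated, 70.5, 72.1 and 79.6 in stimulated and 50.8, 49.0 and 48.3 in inhibitor libraries. It fell in both steps without overlap, by 1.27 ± 0.08 (adjusted p = 5.4e-07) and 0.59 ± 0.08 (adjusted p = 2.6e-04). Hexa (ENSMUSG00000025232, chromosome 9, 59539540 to 59565109) encodes the alpha chain of hexosaminidase A, which is deficient in Tay-Sachs disease. Its levels were 45.5, 49.8 and 52.5 CPM unstimulated, 29.6, 27.7 and 30.5 stimulated and 48.0, 50.02 and 42.4 with the inhibitor, where they overlapped the unstimulated ones. Hexa fell by 0.75 ± 0.10 (adjusted p = 8.5e-05) and rose by 0.68 ± 0.10 with the inhibitor (adjusted p = 4.3e-04).

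Of the other glycosidases, Gaa, the acid alpha-glucosidase that degrades glycogen, rose from 32.7 ± 0.98 to 55.0 ± 7.59 CPM (0.75 ± 0.13, adjusted p = 6.8e-04) and was at 57.3 ± 8.75 CPM with the inhibitor (0.06 ± 0.13, adjusted p = 0.743). Glb1, the beta-galactosidase, was at 26.2 ± 0.82 and 30.7 ± 2.98 CPM (0.23 ± 0.10, adjusted p = 0.0720) and fell to 21.2 ± 0.82 CPM with the inhibitor (-0.53 ± 0.10, adjusted p = 0.0021). Neu1, the sialidase, was at 47.8 ± 5.24, 39.2 ± 2.42 and 38.7 ± 2.18 CPM, and its fall with stimulation was small (-0.29 ± 0.11, adjusted p = 0.0352). The call of Neu1 was lost without unstimulated library 1 (adjusted p = 0.1090) or 3 (0.1200) and without stimulated library 1 (0.1170), 2 (0.0899) or 3 (0.0512), and with a replicate block (0.0616). It was also lost with no filter (0.13) and in the fit of the 2 groups alone (0.0506).

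**Figure D5:**
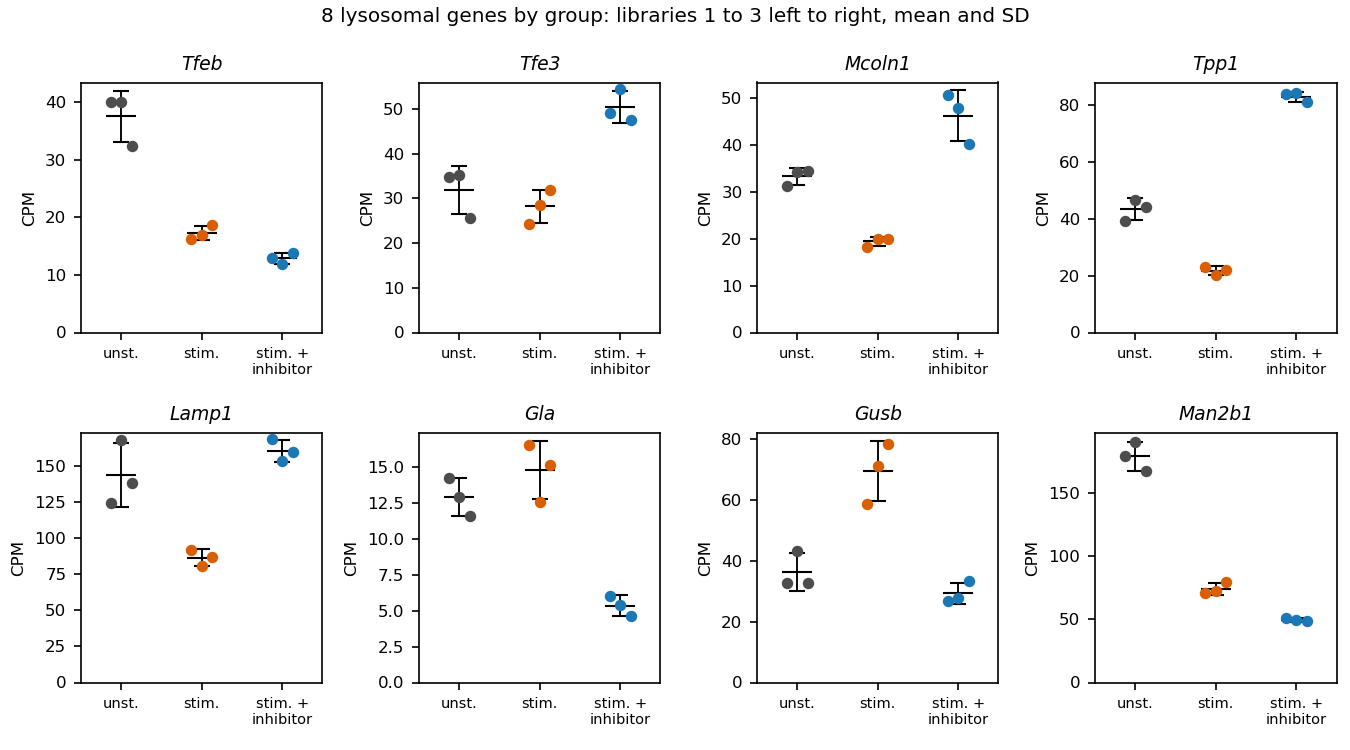
CPM of 8 lysosomal genes in unstimulated (unst.), stimulated (stim.) and inhibitor cells, with points for libraries 1 to 3 and the mean with SD as black bars. The inhibitor libraries lie above all others for Tfe3, Mcoln1 and Tpp1 and below all others for Tfeb, Gla and Man2b1.

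Among the lipid-handling genes Psap changed most. Psap (ENSMUSG00000004207, chromosome 10, 60277627 to 60302597) encodes prosaposin, the precursor of the saposins that present sphingolipids to their hydrolases. It was at 777, 885 and 695 CPM in unstimulated, 163, 175 and 186 in stimulated and 225, 281 and 292 in inhibitor libraries, with no overlap. Psap fell by 2.17 ± 0.13 (adjusted p = 3.2e-07) and rose by 0.61 ± 0.12 with the inhibitor (adjusted p = 0.0025). Its ratio between unstimulated libraries 2 and 3 was 1.27, beside 2.47 for the summed myeloid markers and 0.907 to 1.21 for their macrophage genes Vcam1, Mrc1, C1qa, C1qb and C1qc. The summed T cell markers had a ratio of 0.651. The part of other cells in the fall of Psap, or in its rise with the inhibitor, was not tested. Per kilobase of exon Psap was first of the 29 genes in unstimulated cells at 286 ± 35 RPKM, ahead of Laptm5 at 188 ± 20 RPKM. In stimulated cells Laptm5 was first at 142 ± 8.5 RPKM and Psap was at 63.6 ± 4.1, close to Ctsz at 57.1 ± 5.7 RPKM. With the inhibitor Psap at 96.9 ± 13 and Laptm5 at 95.5 ± 2.7 RPKM did not differ beyond their spread.

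Npc2 and Npc1 encode the soluble and the membrane protein that hand cholesterol out of the lysosome. Npc2 (ENSMUSG00000021242, chromosome 12, 84754562 to 84773152) was at 182, 145 and 192 CPM in unstimulated, 199, 236 and 251 in stimulated and 219.8, 328 and 359 in inhibitor libraries. The stimulated libraries lay above the unstimulated ones, and inhibitor library 1 lay within the stimulated range. Npc2 was not called in either step, at 0.40 ± 0.18 with stimulation (adjusted p = 0.0683) and 0.40 ± 0.18 with the inhibitor (adjusted p = 0.0939), and it was higher with the inhibitor than in unstimulated cells (0.80 ± 0.18, adjusted p = 0.0036). With stimulation Npc2 was called as higher with no filter (0.41, adjusted p = 0.00271) and in the fit of the 2 groups alone (0.40, adjusted p = 0.0273). From stimulated to inhibitor cells it was called as higher without inhibitor library 1 (0.58, adjusted p = 0.00879), in the fit of these 6 libraries with a replicate block (0.39, adjusted p = 0.00908), under upper-quartile scaling (0.52, adjusted p = 0.0285), with no filter (0.37, adjusted p = 0.0129) and with the filter at 10 CPM (0.43, adjusted p = 0.0435). Npc1 was at 68.2 ± 3.59, 64.8 ± 1.16 and 79.3 ± 3.38 CPM. It was not called with stimulation (-0.07 ± 0.07, adjusted p = 0.403) and rose with the inhibitor by 0.29 ± 0.07 (adjusted p = 0.0098). This inhibitor call was lost without inhibitor library 2 (adjusted p = 0.0519) and with no filter (0.142). Asah1 (ENSMUSG00000031591, chromosome 8, 41340197 to 41374773), the acid ceramidase, was at 41.5, 53.1 and 38.7 CPM in unstimulated, 33.6, 30.8 and 31.4 in stimulated and 25.4, 22.9 and 23.5 in inhibitor libraries. The groups did not overlap, and it fell by 0.48 ± 0.13 (adjusted p = 0.0067) and 0.41 ± 0.13 (adjusted p = 0.0219). The second call was lost without stimulated library 1 (adjusted p = 0.0660) or 3 (0.0517), without inhibitor library 2 (0.0734) or 3 (0.0595) and under upper-quartile scaling (-0.28, adjusted p = 0.0896).

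Lamp2, Gla and Tfe3 are X-linked, and they had 3 different patterns: Tfe3 rose and Gla fell with the inhibitor, and Lamp2 was not called. Allele-resolved values were not analysed here, so these are sums over both X chromosomes.

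Against unstimulated cells, the inhibitor group was higher for Tpp1, Tfe3, Mcoln1, Gaa, Npc2 and Npc1. It was lower by 2-fold or more for Ctsh, Man2b1, Lgmn, Psap, Tfeb, Gla and Ctsa (17.1% of all genes). The smallest of the other calls in this comparison were those of Npc1 (0.22), Glb1 (-0.30), Neu1 (-0.30) and Ctsc (-0.32). The call of Npc1 was lost without unstimulated library 2 (adjusted p = 0.1010) or 3 (0.0584) and without inhibitor library 1 (0.0715) or 2 (0.1150). That of Glb1 was lost without unstimulated library 2 (0.0530) or 3 (0.0796) and without inhibitor library 1 (0.0802), 2 (0.0694) or 3 (0.0662). That of Neu1 was lost without unstimulated library 1 (0.1020) or 3 (0.1100) and without inhibitor library 2 (0.0761) or 3 (0.1190), and that of Ctsc without unstimulated library 3 (0.0642) or inhibitor library 2 (0.0760). A replicate block also ended the calls of Neu1 (adjusted p = 0.0620), Glb1 (0.0592) and Npc1 (0.0572). The call of Npc1 was also lost under upper-quartile (adjusted p = 0.266) and RLE scaling (0.0977) and with DESeq2 (0.0973). It was lost as well with no filter (0.289), with the filter at 10 CPM (0.293) and in the fit of the 2 groups alone (0.0649). With no filter Glb1 (0.12) and Neu1 (0.0672) lost their calls too, and so did Neu1 in the fit of the 2 groups alone (0.0555). Lamp1 was called as higher without unstimulated library 2 (0.28, adjusted p = 0.0255).

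Further lists of genes of the pathway are read beside all genes tested, of which 34.0% fell and 32.0% rose with stimulation and 22.8% fell and 21.7% rose with the inhibitor. Of 28 further hydrolases and cofactors 18 fell and 5 rose with stimulation (median -0.71), and with the inhibitor 12 rose and 6 fell (median 0.15). Ctss, a cathepsin of antigen-presenting cells, fell from 140.5 ± 22.8 to 23.3 ± 2.33 CPM (-2.59 ± 0.13), and Arsb, a sulfatase of dermatan and chondroitin sulfate, from 59.7 ± 1.08 to 12.0 ± 3.63 CPM (-2.31 ± 0.19). Acp5, an acid phosphatase, was at 33.4 ± 2.91 CPM in stimulated and 13.5 ± 1.74 with the inhibitor (-1.31 ± 0.16). Among 17 further membrane proteins 13 fell and 1 rose with stimulation (median -0.89), and 8 rose and 1 fell with the inhibitor (median 0.34). The exception in both was Abcb9, a peptide transporter, at 19.9 ± 1.09, 86.8 ± 9.42 and 12.2 ± 2.36 CPM (2.13 ± 0.15, then -2.82 ± 0.15). Ctns, the cystine exporter, rose from 7.05 ± 1.61 to 19.2 ± 2.47 CPM with the inhibitor (1.44 ± 0.18). Cd68, a macrophage marker, fell from 27.9 ± 9.33 to 6.71 ± 1.28 CPM with stimulation (-2.05 ± 0.26).

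The proton pump and the sorting machinery come next. Of 17 vacuolar ATPase genes 7 fell and 3 rose with stimulation (median -0.16), and 9 rose and 2 fell with the inhibitor (median 0.37). Atp6v1a, the catalytic subunit, rose from 48.1 ± 8.17 to 121 ± 6.1 CPM (1.33 ± 0.12), and Atp6v0a2, a membrane subunit, fell by 0.64 ± 0.09. Atp6ap2, an accessory subunit, rose by 0.64 ± 0.09 and Atp6v1b2 by 0.54 ± 0.09 with the inhibitor. Of 12 sorting genes 5 fell and 3 rose with stimulation (median -0.11), with Cln8, which helps hydrolases leave the endoplasmic reticulum, at -1.04 ± 0.11 and Nagpa, which uncovers the mannose 6-phosphate tag, at -0.78 ± 0.14. With the inhibitor 4 rose and 1 fell (median 0.11), among them the sorting adaptor gene Gga1 (0.38 ± 0.09) and Gnptab, which makes the mannose 6-phosphate tag (-0.40 ± 0.08).

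The list on control of TFEB and TFE3 holds 23 genes, among them the transcription factor genes Mitf, Tfec and Zkscan3. Of these 23 genes 8 rose and 8 fell with stimulation (median 0.10), shares close to those over all genes. With the inhibitor 8 rose and 2 fell (median 0.21). Flcn, the folliculin gene whose product lets mTORC1 hold the 2 factors in the cytosol, was at 45.5 ± 5.71, 24.4 ± 2.89 and 59.5 ± 8.84 CPM (-0.90 ± 0.14, then 1.29 ± 0.14). Tsc1, an mTORC1 inhibitor, was at 75.1 ± 2.85, 42.4 ± 0.43 and 108 ± 5.61 CPM (-0.82 ± 0.07, then 1.34 ± 0.07). Ppp3ca, a calcineurin catalytic subunit, fell by 1.95 ± 0.10 and Rragd, a Rag GTPase, rose by 1.28 ± 0.15 with stimulation. Of 22 autophagy genes 16 fell and 1 rose with stimulation (median -0.54), and 9 rose and 3 fell with the inhibitor (median 0.22). Map1lc3b, an LC3 gene of the autophagosome membrane, went from 134 ± 10.6 to 25.2 ± 1.03 CPM (-2.41 ± 0.10). Its relative Gabarapl1 went from 12.0 ± 2.83 to 57.0 ± 2.2 CPM (2.25 ± 0.16) and to 28.0 ± 1.39 with the inhibitor (-1.03 ± 0.15). Sqstm1, the cargo receptor p62, was at 166, 144 and 164 CPM unstimulated, 104, 103 and 109 stimulated and 203, 242 and 242 with the inhibitor, which gave 1.12 ± 0.09 between the last 2 groups.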

How the data were processed

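The deposited table holds whole-number read counts per gene for 9 libraries, made by the authors with STAR 2.7.1a and featureCounts on mm10, per the submitters' processing notes. The sources used here do not give the annotation release, strand setting or counting of mates. Of counts from 1 to 10, 70.6% to 78.5% were even. The mm10 genome is of C57BL/6, and its effect on castaneus reads was not tested. GENCODE M21 matched 49412 gene IDs and gave names, positions and exon lengths for RPKM. Exons of Lamp1, Ctsa, Ctsb, Ctsl, Ctsz, Hexa and Npc1 overlap a gene on the other strand, and those of Ctsd, Ctsl and Glb1 one on the same strand, so their counts are less certain.

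Genes were kept with filterByExpr of edgeR 4.0.16 (R 4.3.3), with TMM factors of 0.925 to 1.122. A quasi-likelihood fit of all 9 libraries on the group left 6 residual degrees of freedom. Tests were two-sided, with Benjamini-Hochberg adjustment over 18374 genes and a threshold of 0.05. The approximate SE is the absolute log2 fold change divided by the root of F. Alternatives were upper-quartile and RLE scaling, no filter, a filter at 10 CPM in 3 libraries, DESeq2 1.42.0, limma 3.58.1 voom, fits of 2 groups, a replicate block, and leaving out each library.

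Libraries of a group differed beyond sampling noise (chi-square of 30 to 112 for each degree of freedom), which cannot tell whether they come from separate animals. They were counted as separate samples by their labels. They are labelled biological replicates with no animal named, so the tests cover the spread of these libraries only. Deviations from the group mean correlated at 0.112 to 0.143 between same-numbered stimulated and inhibitor libraries, and at -0.106 to 0.001 between those of different number. The replicate block on these 6 libraries takes them as paired. The main fit, which gave the reported calls, does not. With unstimulated libraries the correlations were -0.233 to 0.001 for the same number and -0.038 to 0.147 for different numbers, so these were not taken as paired. The pairing comes from the data and not from the labels.

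The genes and lists were chosen with earlier results of these data known. Values for every library are given for the largest and smallest change of each role in the first 2 comparisons and for both transcription factors. Of each further list, the 2 called genes with the largest change in each of these comparisons and a mean log2 CPM of 3 or more are named, except for a gene that is not reported here. Sqstm1 is given by library, a choice made after its values were seen.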

Additional observations from a re-analysis of the deposited data

How the results depend on the processing

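Over 17 other ways of scaling, filtering, testing or leaving out libraries, and 1 more chosen after seeing the data, none reversed a called change of the 29 genes. The counts of genes called, higher and lower stayed within 1.5 times the reported ones, except that 8 to 13 genes were higher with the inhibitor when single libraries were left out, the lowest without inhibitor library 2. Leaving out libraries changed the call of Neu1 and Ctsc with stimulation, of Asah1, Ctsa, Ctsd, Ctsl, Lgmn, Npc1, Npc2 and Tfeb for the inhibitor, and of Ctsc, Glb1, Neu1, Npc1 and Lamp1 between inhibitor and unstimulated cells. Under upper-quartile scaling the median over all genes was -0.27 with stimulation and 0.16 with the inhibitor, in place of -0.05 and 0.03, and that of the 29 genes was -0.78 and 0.41, in place of -0.56 and 0.29. Under that scaling Lamp2, Npc1 and Tfe3 were called as lower with stimulation (-0.45, -0.30 and -0.39). With the replicate number as a block over all 9 libraries, 20 genes were called with stimulation, 21 with the inhibitor and 19 between inhibitor and unstimulated cells, against 21, 21 and 22 without it, with Neu1 lost in the first and Glb1, Neu1 and Npc1 in the last. On the 6 paired libraries alone, the one chosen after seeing the data, 23 were called, 15 higher and 8 lower, with Lamp2 and Npc2 as the additions. At this depth 3 counts over a group are 0.0205 to 0.0228 CPM, so all 29 genes lie well above the limit of detection.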
